A study of Homo sapiens with 8 samples.

Results

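The genes described here are 10 regulators of the G1 phase of the cell cycle: the D cyclins CCND1, CCND2 and CCND3, the E cyclins CCNE1 and CCNE2, the kinases CDK4 and CDK6, and the kinase inhibitors CDKN1A (p21), CDKN1B (p27) and CDKN2C (p18). They were taken by gene symbol from the annotation of the array, which gave 13 probes of 9 of these genes among 47230 probes. CDKN2C was not analysed here. Kasumi-1 cells are an established human line from an acute myeloid leukaemia and carry the t(8;21) translocation. It joins the transcription factor gene RUNX1 to RUNX1T1, which encodes the corepressor ETO. The knockdown arm (siRE) received an siRNA directed at the RUNX1/ETO fusion transcript and the control arm (siMM) a mismatch siRNA, each at 200 nM by repeated electroporation. Both arms were kept in RPMI1640 with foetal calf serum and glutamine. Total RNA was read on Illumina bead arrays 48 h and 96 h after the first electroporation, 72 h after the second (168 h in all) and 72 h after the third (240 h in all). There were 8 arrays, 1 per arm and time, all from the same cell line, and separate cultures for the times within an arm are not stated in the labels. A p-value of the comparison over the 4 times therefore rests in part on the spread of the siRE minus siMM difference between times, which may be technical. For the interaction with day, that spread is taken about a straight line in day. A slope within an arm rests instead on the spread of single arrays about the line of their arm. A fit with no time block rests on their spread about the mean of their arm. In each fit limma draws the spread of a probe towards that of all tested probes. In the comparison over the 4 times this shared spread carried more weight (8.16 prior against 3 residual degrees of freedom). An SE or p-value of a single probe there reflects mostly the shared spread. A mean ± SD is taken over the 4 times of an arm.

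D cyclins bind CDK4 or CDK6 and begin the phosphorylation of the retinoblastoma protein RB, which holds back the E2F transcription factors. E cyclins bind CDK2 later in G1 and complete that phosphorylation, so that E2F target genes are transcribed and DNA replication can start. INK4 inhibitors such as CDKN2C act on CDK4 and CDK6, whereas the CIP/KIP inhibitors CDKN1A and CDKN1B bind cyclin-CDK complexes more widely. In myeloid cells, exit from this cycle accompanies terminal differentiation, and CCND2 has been reported as an effector of RUNX1/ETO.

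The promoters of the kinases are shown because CDK4 and CDK6 were both lower in siRE (values below), by nearly the same amount. RefSeq windows of GRCh38.p14 were matched by symbol for 7 of the 10 genes, and 3 of the 5 genes that passed the test had one. The sequences are the 250 bases before the annotated start, on the strand of the gene (minus for both), for CDK4 at chr12:57752311-57752560 and for CDK6 at chr7:92836574-92836823, the window at the gene's annotated 5′ end of the 2 given. Capitals mark the E-box word CACGTG, the sequence bound by MYC-MAX and related factors.
CDK4: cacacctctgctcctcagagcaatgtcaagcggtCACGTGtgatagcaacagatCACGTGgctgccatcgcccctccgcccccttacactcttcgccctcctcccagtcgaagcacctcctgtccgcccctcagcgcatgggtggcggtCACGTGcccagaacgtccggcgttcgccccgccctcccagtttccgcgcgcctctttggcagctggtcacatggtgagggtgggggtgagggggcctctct
CDK6: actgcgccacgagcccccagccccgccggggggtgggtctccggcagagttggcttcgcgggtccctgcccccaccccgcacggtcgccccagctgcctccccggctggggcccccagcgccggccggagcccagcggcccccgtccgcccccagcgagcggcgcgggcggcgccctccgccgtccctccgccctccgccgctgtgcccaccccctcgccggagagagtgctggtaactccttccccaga
The CDK4 window held 3 E-boxes, whose first bases lay 216, 196 and 101 bases before the start, and CDK6 and CCNE1 held 0. At least 1 such word was found in 6.32% of 34943 RefSeq windows of this length, and 3 or more in 0.0801%. The RUNX core TGTGGT, the E2F words TTTCCCGC and TTTGGCGC, and the AP-1 word TGANTCA, each searched on both strands, had 0 matches in the windows of CDK4, CDK6 and CCNE1. They occurred in 11%, 1.92% and 6.59% of all windows. A match is a description of the letters in the window and does not show that a factor binds there.

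Values are those the authors normalized and are read here as log2; since they may instead be variance-stabilised, a fold assumes plain log2. A probe was tested if it exceeded a background cut-off of 5.90 on at least 2 of the 8 arrays, as 14644 probes did, 10 of them probes of 7 of these genes. The siRNA target was lower in the knockdown: the brightest RUNX1T1 probe averaged 7.48 ± 0.26 in siRE and 8.87 ± 0.26 in siMM (SD, n = 4 arrays each; -1.38, SE 0.13, limma's adjusted p = 0.000197). A dimmer RUNX1T1 probe, above the cut-off on 2 siRE arrays and 0 siMM arrays, stood at 0.28, higher in siRE at all 4 times, and did not pass (limma's adjusted p = 0.261). RUNX1 stood at -0.42 (limma's adjusted p = 0.146). Of 8 genes listed for the identity of the line, 6 were tested: RUNX1T1, KIT, CD34, MPO, POU4F1 and SPI1. Besides RUNX1T1, CD34 fell, a surface marker of immature blood cells, which averaged 9.70 ± 1.13 in siRE and 11.57 ± 0.15 in siMM (SD, n = 4 arrays each; -1.87, limma's adjusted p = 0.00958; -0.35 per day, limma's adjusted p = 0.00362). KIT (-0.13), MPO (-0.11), POU4F1 (-0.05) and SPI1 (0.39) were not called. Thus 2 of 6 fell, against 3.34% of all 8830 tested genes. PTPRC was below the cut-off on all arrays, and CD33 was not analysed here. Of 8 markers of neutrophil maturation 6 were tested, and 5 rose (CEACAM6, BPI, S100A9, LYZ and S100A8), against 3.76% of all 8830 tested genes. S100A8 was above the cut-off on 3 siRE arrays and 0 siMM arrays, so that it passed the filter through siRE. The same holds for LTF (2 and 0 arrays), which was not called. The mean level of the 8 markers ranged from 6.65 to 9.21 over the siRE arrays and from 5.71 to 6.04 over the siMM arrays. MMP9 stayed below the cut-off on all 8 arrays and CAMP was above it on 1. Markers of T cells, erythroid cells and fibroblasts did not reach the filter, and CD79A and PPBP lay close to the cut-off. Of the 2 epithelial markers listed, the surface protein EPCAM was bright on all 8 arrays (11.03 to 11.40 in siRE and 11.27 to 11.60 in siMM). The other, KRT18, was below the cut-off on all 8 arrays (5.37 to 5.72 in siRE and 5.29 to 5.56 in siMM). In a culture measured as a whole, fewer cells of a type and less RNA per cell cannot be told apart, and the part of neutrophil maturation or of the lower CD34 in the cell cycle values below was not tested.

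Over the 4 times, 5 of the 7 tested genes fell in siRE and 0 rose: CCND1, CCND2, CCNE1, CDK4 and CDK6. CDK4 and CDK6 each fell 1.44-fold, and CCND1 reached values below the background cut-off in siRE, so that no exact fold is given for it. CCND3 and CDKN1B stood higher in siRE without passing the test. By probe, 6 of 10 passed as lower (limma, Benjamini-Hochberg adjusted over all 14644 probes, threshold 0.05), against 2.8% of all tested probes (6.07% in either direction). As higher, 0 of 10 passed, against 3.27% of all tested probes. At an unadjusted p under 0.05 (limma) 1 of 10 stood higher, and the share of all tested probes at that limit was not taken. The median difference of the 7 genes, each at its brightest tested probe, was -0.52, against -0.04 over 8830 tested genes. All 4 siRE arrays lay below all 4 siMM arrays for 5 of the 10 probes, against 5.11% of all tested probes, and above them for 0 of 10, against 5.01%. CCND1 was above the cut-off on 1 siRE array and 4 siMM arrays, so that it passed the filter through siMM, and the dimmer CCNE1 probe was above it on 1 siRE array and 2 siMM arrays.

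**Figure D1:**
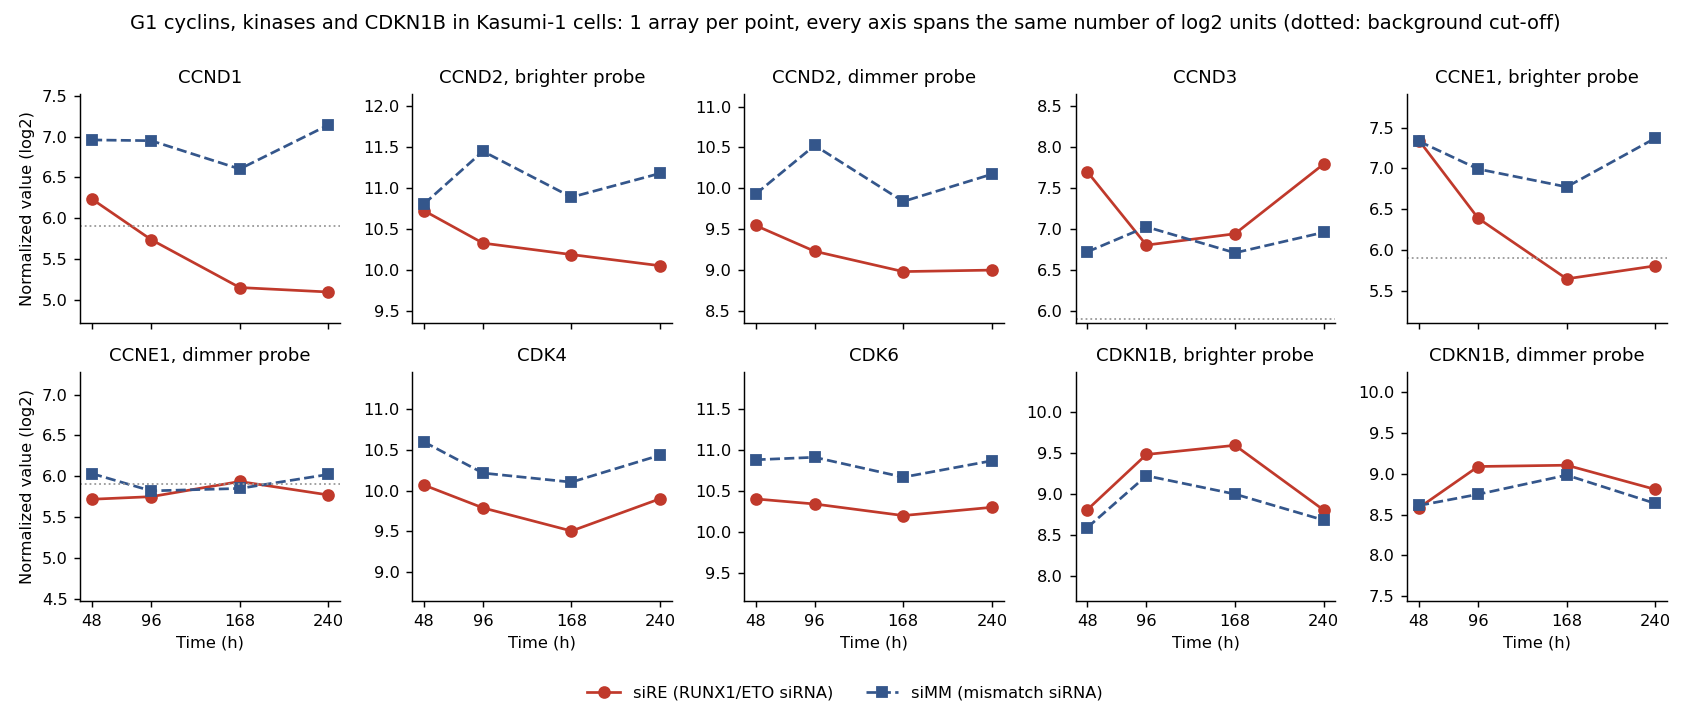
Normalized value (log2) of the 10 tested probes against time (h) in siRE (red circles, solid lines) and siMM (blue squares, dashed lines), 1 array per point; every panel spans the same number of log2 units and the dotted line is the background cut-off of 5.90. The siRE points of CCND1, both CCND2 probes, CDK4 and CDK6 lie below every siMM point of the same probe, and the brighter CCNE1 probe starts at the same level in both arms.

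CCND1, cyclin D1 (chromosome 11, ILMN_1688480), read 6.23, 5.74, 5.15 and 5.10 in siRE at 48, 96, 168 and 240 h, against 6.96, 6.95, 6.60 and 7.14 in siMM. The siRE values were lower at each later time and lay below the background cut-off from 96 h on, whereas all siMM values lay above it. The means were 5.56 ± 0.54 in siRE and 6.91 ± 0.22 in siMM (SD, n = 4 arrays each), a difference of -1.36 (SE 0.19, 95% interval -1.77 to -0.94, limma's adjusted p = 0.00191) that rests on readings below the cut-off on 3 of 4 siRE arrays. The call held in all 11 alternative runs, between -1.57 and -0.93. With dim values floored at the cut-off it stood at -0.93, since 3 of the 4 siRE values were then raised to it.

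CCND2, cyclin D2 (chromosome 12), is read by 2 probes. The brighter (ILMN_2067656) read 10.72, 10.33, 10.18 and 10.05 in siRE at 48, 96, 168 and 240 h, against 10.80, 11.45, 10.89 and 11.18 in siMM. At 48 h the arms were 0.08 apart, and at the later times siRE was lower by 0.70 or more. The dimmer (ILMN_1667081) read 9.55, 9.23, 8.98 and 9.0 in siRE, against 9.93, 10.52, 9.84 and 10.17 in siMM. Both probes showed the highest siMM value at 96 h, and their values correlated with Pearson's r of 0.986 over the 8 arrays. The brighter probe averaged 10.32 ± 0.29 in siRE and 11.08 ± 0.29 in siMM (SD, n = 4 arrays each; -0.76, SE 0.18, limma's adjusted p = 0.0321). The dimmer averaged 9.19 ± 0.26 in siRE and 10.12 ± 0.31 in siMM (-0.93, SE 0.16, limma's adjusted p = 0.00739), so that 59.1% and 52.6% of the control signal were left by the brighter and the dimmer probe. Both calls ended without the 96 h pair of arrays (-0.64 and -0.80, limma's adjusted p = 0.166 and 0.0704), as they did when the 168 h pair was omitted (-0.78 and -0.95, limma's adjusted p = 0.155 and 0.0565). That of the brighter probe also ended without the 240 h pair (-0.64, limma's adjusted p = 0.0806) and, at an unchanged difference, with dim values floored at the cut-off (limma's adjusted p = 0.0823).

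CCND3, cyclin D3 (chromosome 6, ILMN_1668721), read 7.70, 6.80, 6.94 and 7.79 in siRE at 48, 96, 168 and 240 h, against 6.72, 7.02, 6.71 and 6.96 in siMM. It stood well above siMM at the first and last times (0.98 and 0.83), was slightly above at 168 h (0.23) and below at 96 h (-0.22), so the arms overlapped. The mean difference of 0.46 (SE 0.19, 95% interval 0.03 to 0.88) did not pass after adjustment (limma's adjusted p = 0.186) in the main comparison or in any of 11 alternative runs. It stood at 0.28 without the 48 h pair and at 0.68 without the 96 h pair. CCND1 and CCND2 fell in siRE, and the estimate for CCND3 was positive; the difference between these genes was not tested.

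CCNE1, cyclin E1 (chromosome 19), gave different values at its 2 probes. The brighter (ILMN_2374425) read 7.34, 6.39, 5.65 and 5.81 in siRE at 48, 96, 168 and 240 h, against 7.33, 6.99, 6.77 and 7.37 in siMM. The arms were equal to within 0.01 at 48 h, and siRE lay below the background cut-off at 168 and 240 h. Its mean difference was -0.82 (SE 0.22, 95% interval -1.30 to -0.34, limma's adjusted p = 0.0492), close to the threshold. That call ended without the 96, 168 or 240 h pair (-0.89, -0.72 and -0.57, limma's adjusted p = 0.138, 0.254 and 0.129), under a fit with no time block (limma's adjusted p = 0.164), with cyclic loess (-0.80, limma's adjusted p = 0.0514) and with dim values floored at the cut-off (-0.73, limma's adjusted p = 0.124). The dimmer probe (ILMN_1733419) ranged from 5.72 to 5.94 over siRE and from 5.82 to 6.03 over siMM, next to the cut-off, and did not pass (-0.14, 95% interval -0.43 to 0.16, limma's adjusted p = 0.582). CCNE2, cyclin E2, was not above background on any array at its single probe (4.36 to 4.92 over the 8 arrays).

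CDK4 (chromosome 12, ILMN_1689001), the partner kinase of the D cyclins, read 10.07, 9.79, 9.51 and 9.90 in siRE at 48, 96, 168 and 240 h, against 10.60, 10.21, 10.10 and 10.43 in siMM. CDK6 (chromosome 7, ILMN_1802615), its close relative, read 10.40, 10.34, 10.20 and 10.30 in siRE, against 10.88, 10.91, 10.67 and 10.87 in siMM. The arms did not overlap for either kinase, both kinases had their lowest value of each arm at 168 h, and the gap between the arms was nearly the same at every time. For CDK4 the difference was -0.53, -0.43, -0.60 and -0.53 at 48, 96, 168 and 240 h (mean -0.52, SE 0.13, 95% interval -0.80 to -0.24, limma's adjusted p = 0.0368). For CDK6 it was -0.48, -0.57, -0.47 and -0.57 (mean -0.52, SE 0.13, 95% interval -0.80 to -0.24, limma's adjusted p = 0.0362). About 70% of the control signal was left for each (69.7% for CDK4 and 69.6% for CDK6). These calls lay near the threshold and ended when any pair of arrays was left out, at differences between -0.55 and -0.50 and limma's adjusted p between 0.0586 and 0.199, and when all probes were tested without a filter (limma's adjusted p = 0.0703 for CDK4 and 0.0687 for CDK6). That of CDK4 also ended under a fit with no time block (limma's adjusted p = 0.11).

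Among the CDK inhibitors, CDKN1B (chromosome 12), which binds and restrains cyclin-CDK complexes, is read by 2 probes. The brighter (ILMN_2196347) read 8.81, 9.49, 9.60 and 8.81 in siRE at 48, 96, 168 and 240 h, against 8.59, 9.23, 9.0 and 8.68 in siMM. In both arms the values at 96 and 168 h were above those at 48 and 240 h, and siRE was above siMM at all 4 times, by 0.12 to 0.60. The mean difference was 0.30 (SE 0.14, 95% interval -0.00 to 0.60, limma's adjusted p = 0.223). The dimmer (ILMN_1722811) ranged from 8.59 to 9.10 over siRE and from 8.61 to 8.98 over siMM, with a difference of 0.15 (95% interval -0.14 to 0.44, limma's adjusted p = 0.532). Neither probe passed in any of 11 alternative runs, and the intervals leave room for a rise of up to 0.60 as well as for none. CDKN1A, an inhibitor induced by p53, did not pass the filter: its brighter probe (ILMN_1784602) read 4.96, 5.60, 5.49 and 5.36 in siRE, against 5.72, 6.13, 5.53 and 5.26 in siMM, above the cut-off at 96 h in siMM alone. Its dimmer probe (ILMN_1787212) ranged from 4.32 to 4.76 over the 8 arrays. No change of CDKN1A was therefore measurable on these arrays.

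**Figure D2:**
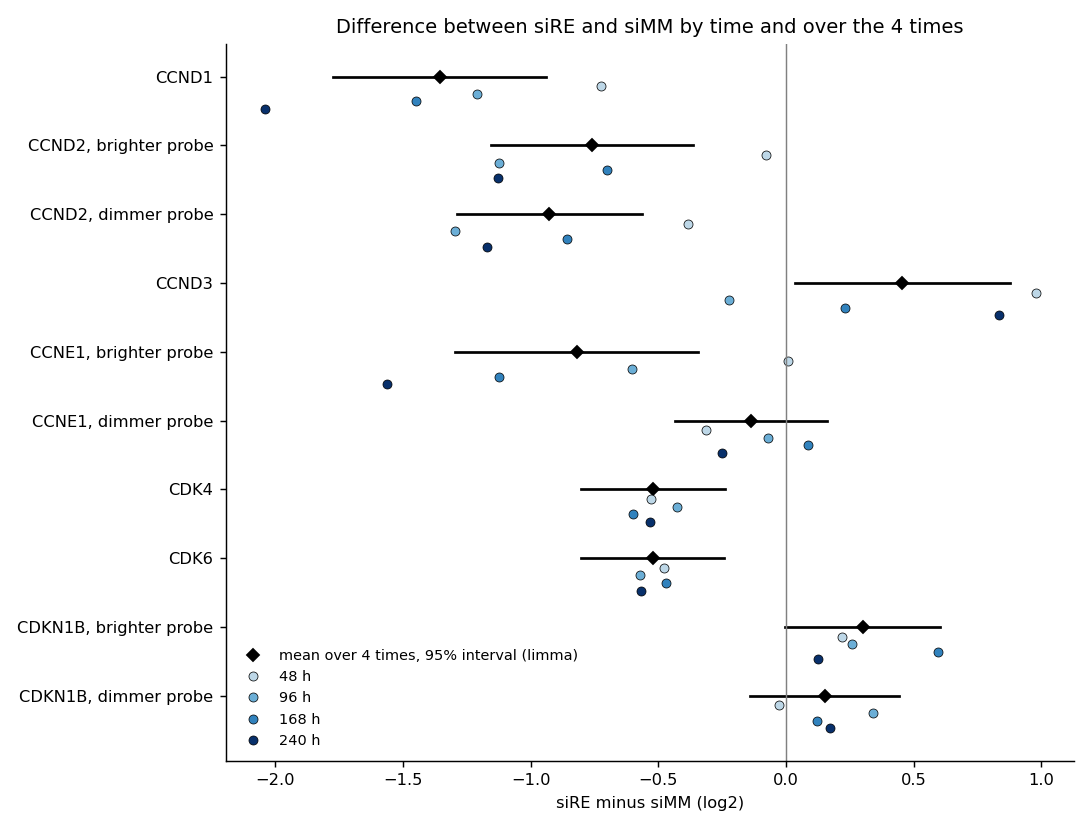
Difference between siRE and siMM (log2) of each tested probe: black diamonds and bars are the mean over the 4 times with its 95% interval (limma), and circles, light to dark, are the differences at 48, 96, 168 and 240 h, 1 array against 1. CCND1 and the brighter CCNE1 probe spread towards lower values with time (-0.72 to -2.04 and 0.01 to -1.56). Their siRE readings lay below the background cut-off from 96 h on and at 168 and 240 h, in that order. The change per day did not pass for CCND1 (limma's adjusted p = 0.0933). The 4 circles of CDK4 lie between -0.60 and -0.43 and those of CDK6 between -0.57 and -0.47.

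The differences at the single times are set side by side here; differences in course between genes were not tested. At 48 h CCND1 (-0.72), CDK4 (-0.53) and CDK6 (-0.48) were already lower in siRE, while the brighter CCNE1 probe stood at 0.01. The CCND2 probes stood at -0.08 (brighter) and -0.38 (dimmer). With 1 array against 1, these values have no test. At a size of 1 or more on the log2 scale, 0, 3, 2 and 4 of the 10 probes were lower in siRE at 48, 96, 168 and 240 h, against 0.273%, 0.56%, 1.64% and 4.95% of all tested probes, and 0 were higher at any time, against 0.594%, 1.15%, 1.99% and 3.51% of all tested probes. The probes lower by that size were CCND1 and both CCND2 probes at 96 h, CCND1 and CCNE1 at 168 h, and these 4 at 240 h.

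Whether the difference changed with time was tested as an interaction of siRNA and day. The number of electroporations rose with day (1, 1, 2 and 3 at 48, 96, 168 and 240 h). Time and repeated siRNA therefore cannot be told apart, here or in the slopes below. The brighter CCNE1 probe passed, with a difference that became more negative by 0.19 per day (-0.19, SE 0.04, limma's adjusted p = 0.0471), and 0 probes became more positive (limma; 0 at an unadjusted p under 0.05 as well). By adjusted p this was 1 of 10 probes, against 0.417% of all tested probes for more negative and 0.533% for more positive differences. CCND1 did not pass (-0.15 per day, SE 0.04, limma's adjusted p = 0.0933), and with its 3 siRE values below the cut-off floored the estimate was -0.04 per day (limma's adjusted p = 0.613). For CDK4 and CDK6 the estimates were -0.01 per day, with 95% intervals of -0.09 to 0.08 for both (limma's adjusted p = 0.94 and 0.956). The CCNE1 call ended without the 48, 96 or 240 h pair (-0.16, -0.20 and -0.22 per day, limma's adjusted p = 0.237, 0.108 and 0.162), with no filter (limma's adjusted p = 0.104), with cyclic loess (-0.19, limma's adjusted p = 0.0571) and with dim values floored at the cut-off (-0.17, limma's adjusted p = 0.125). CCND1 passed without the 168 h pair (-0.16 per day, limma's adjusted p = 0.0444).

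Slopes were also fitted within each arm. The slope of CCND1 was -0.14 per day in siRE (SE 0.04, limma's adjusted p = 0.0659) and 0.01 per day in siMM (limma's adjusted p = 1.00). With dim values floored the siRE slope of CCND1 was -0.03 per day (limma's adjusted p = 0.635), so that it rested mostly on differences among readings below the cut-off. The slope of the brighter CCNE1 probe was -0.19 per day in siRE (SE 0.05, limma's adjusted p = 0.0639) and 0.00 in siMM (limma's adjusted p = 1.00). After adjustment 0 of 10 probes had a slope in siRE, against 1% falling and 1.01% rising among all tested probes, and 2 had one at an unadjusted p under 0.05 (limma), CCND1 and CCNE1, both falling, against 11.6% falling among all tested probes. In siMM 0 of 10 had one, adjusted or unadjusted, against 0% of all tested probes adjusted and 1.85% unadjusted. CCNE1 passed in siRE without the 240 h pair (-0.33 per day, limma's adjusted p = 0.0166), with no filter (limma's adjusted p = 0.0443) and with a robust, intensity-trended prior (limma's adjusted p = 0.0496), whereas the same slope was -0.10 per day without the 48 h pair (limma's adjusted p = 0.375) and -0.17 with dim values floored (limma's adjusted p = 0.163).

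Among other CDKs, cyclins and inhibitors, 12 of 17 listed genes were tested, of which 1 rose and 1 fell (median -0.20). CDKN2D, the INK4 inhibitor p19, read 6.11, 6.33, 6.34 and 6.75 in siRE at 48, 96, 168 and 240 h, against 5.78, 5.75, 5.56 and 6.04 in siMM. It was above the background cut-off on all siRE arrays and on 1 siMM array, the arms did not overlap, and the difference was 0.60 (SE 0.14, limma's adjusted p = 0.0259). CDK1, the kinase of mitotic entry, averaged 8.71 ± 0.59 in siRE and 9.36 ± 0.20 in siMM (SD, n = 4 arrays each; -0.65, limma's adjusted p = 0.0494), with -0.10 at 48 h and -1.20 at 240 h. By gene, the share of all 8830 tested genes that passed was 3.34% as lower and 3.76% as higher. The calls of CDKN2D and CDK1 ended without the 96, 168 or 240 h pair, with no time block and with dim values floored, and that of CDK1 also with no filter and with cyclic loess (CDKN2D 0.45 to 0.69 and CDK1 -0.83 to -0.47 over all 11 alternative runs, limma's adjusted p up to 0.178 and 0.23).

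In the RB and E2F family, 11 of 13 genes were tested, 1 fell and 0 rose (median -0.18). The shares of all tested genes were 3.34% and 3.76%, in that order. E2F5, an E2F factor that works with the RB relatives, read 7.45, 7.19, 6.82 and 6.60 in siRE at 48, 96, 168 and 240 h, against 7.83, 7.64, 7.88 and 7.81 in siMM. The siRE values were lower at each later time while siMM stayed within 7.64 to 7.88, and the difference was -0.77 (SE 0.17, limma's adjusted p = 0.0203), a call that ended without the 96 or 168 h pair and with dim values floored at the cut-off (limma's adjusted p up to 0.162). RBL2, the RB relative p130 of resting cells, stood at 0.12, 0.24, 0.69 and 0.82 at the 4 times, with a mean of 0.47 that did not pass (limma's adjusted p = 0.101). Of E2F target genes of the G1/S step, 21 of 23 were tested. All 21 had a negative estimate (median -0.32), against 56.8% of all tested genes. With 1 siRE array each above the cut-off, CHAF1A (-0.55, not called) and CHAF1B passed the filter through siMM, on 2 and 4 arrays. Of the 21, 3 fell, against 3.34% of all tested genes, and 0 rose, against 3.76%. With a robust, intensity-trended prior 6 fell, under a fit with no time block 0, and 0 to 7 with a pair left out. The median of the 21 stood at 0.06, -0.50, -0.45 and -0.67 at 48, 96, 168 and 240 h. The 3 were CHAF1B, a subunit of chromatin assembly factor 1 that was above the cut-off on 1 siRE array and 4 siMM arrays, at -0.72, UHRF1, which maintains DNA methylation at replication, at -0.71, and CDC45, part of the replicative helicase, at -0.63 (limma's adjusted p = 0.0311, 0.0198 and 0.0486). All 3 calls ended without the 96 or the 168 h pair. That of CHAF1B also ended without the 240 h pair and with dim values floored, where its estimate was -0.42, and that of CDC45 without the 240 h pair, with no filter, with dim values floored and with cyclic loess.

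**Figure D3:**
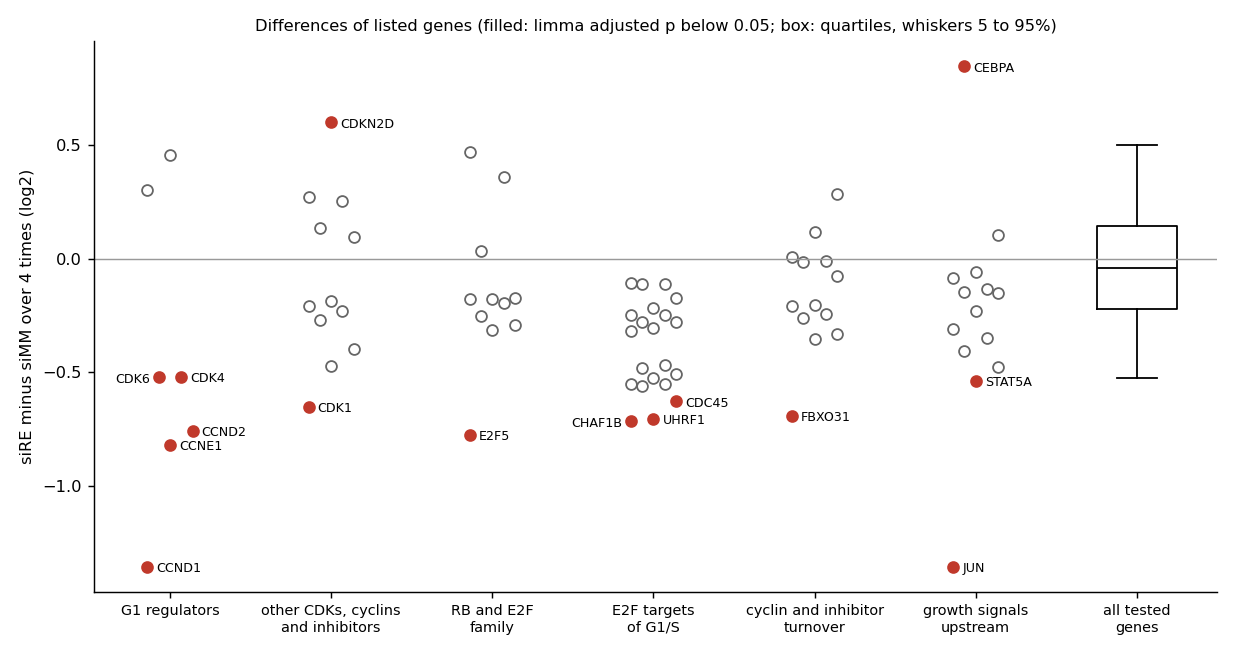
Difference between siRE and siMM over the 4 times (log2) of each tested gene, at its brightest probe, in the 10 G1 regulators (left) and 5 lists of related genes, with filled points for a limma's adjusted p below 0.05; the box at the right gives the median and quartiles of all 8830 tested genes, with whiskers from the 5th to the 95th percentile. The 21 E2F targets all lie below 0, CHAF1A and CHAF1B among them having passed the filter through siMM. CCND1 and JUN are both drawn at -1.36, with siRE readings below background on 3 and 1 of 4 arrays (-0.93 and -1.17 with those floored).

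Of genes that control the turnover of G1 cyclins and inhibitors, 13 of 16 were tested (median -0.20). Here 1 fell, against 3.34% of all tested genes, and 0 rose, against 3.76%. FBXO31, an F-box protein that can direct cyclin D1 to degradation, read 6.55, 6.23, 6.04 and 5.56 in siRE at 48, 96, 168 and 240 h, against 6.63, 7.01, 6.88 and 6.64 in siMM. Its difference was -0.69 (SE 0.17, limma's adjusted p = 0.0362), a call that ended without the 96, 168 or 240 h pair, with dim values floored and under a fit with no time block (limma's adjusted p up to 0.202). CUL1, the scaffold of SCF ubiquitin ligases, stood at -0.35 and did not pass (limma's adjusted p = 0.157). Of growth signals upstream of the D cyclins 14 of 21 were tested (median -0.19). In this list 2 were lower, against 3.34% of all tested genes, and 1 higher, against 3.76%. JUN, an AP-1 subunit known to act on the CCND1 promoter, stood at -0.89, -0.94, -1.77 and -1.83 at 48, 96, 168 and 240 h (mean -1.36, limma's adjusted p = 0.00148), and STAT5A, a cytokine-activated transcription factor, at -0.54 (limma's adjusted p = 0.0353). CEBPA, a myeloid transcription factor known to slow proliferation, rose by 0.85 (limma's adjusted p = 0.00399), with 9.19 to 9.61 in siRE and 8.51 to 8.54 in siMM. MYC stood at 0.24, 0.08, -0.67 and -0.88 at 48, 96, 168 and 240 h. Its mean of -0.31 did not pass (limma's adjusted p = 0.367), nor did its change of -0.15 per day (limma's adjusted p = 0.101). The call of JUN ended under a fit with no time block (limma's adjusted p = 0.096) and that of STAT5A when any pair was left out, with no filter and with no time block (limma's adjusted p up to 0.173), whereas that of CEBPA held in all 11 alternative runs.

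The genes whose values followed the brighter CCND2 probe most closely over the 8 arrays were SLC44A2, a choline transporter-like protein (Pearson's r of 0.973), EIF4H, a translation initiation factor (0.969), RPTOR, the scaffold of mTOR complex 1 (0.967), TRIM24, a transcriptional co-regulator (0.965), and APRT, an enzyme of adenine salvage (0.965). These coefficients include the difference between the arms and are given as a description. As differences between siRE and siMM, given without a test because the genes were picked on the same arrays, SLC44A2 stood at -0.61, EIF4H at -0.22, RPTOR at -1.08, TRIM24 at -0.81 and APRT at -0.32. SLC44A2 was above the background cut-off on 1 siRE array and 4 siMM arrays. Among the other G1 regulators CCND1 ranked 61 and CDK6 166 by this measure (r of 0.928 and 0.896). The brighter CCNE1 probe had r of 0.793 and CDK4 0.711, and CDKN1B and CCND3 had negative values (-0.31 and -0.33).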

How the data were processed

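The expression values are the authors' deposited table, read here as log2 (range 3.89 to 14.36) and made with lumi per the submitters' processing notes. Not given in the sources used here are the version, the background handling and the transformation. Sorted array by array, the values differ by 0.0235 or less, as quantile normalization leaves them, which hides a shift common to most transcripts. They were not normalized again. The values were not centred per probe. A second table, with 8 signal columns that match no label, was left out.

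Symbols come from the platform annotation (30112 probes with 1 symbol, 8 with several, 17110 with none). Of these, 30073 probes matched RefSeq (GRCh38.p14), which changed 0 symbols. The background cut-off of 5.90 is the mode of all values, 5.22, plus the distance from it that 90% of the lower values keep within. The brightest tested probe stands for a gene in the related lists.

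Tests used limma 3.58.1 in R 4.3.3 (lmFit, eBayes, Benjamini-Hochberg over all 14644 tested probes): siRNA with time as a factor (3 residual degrees of freedom), siRNA by day (2), and a slope per arm (4). The prior of eBayes added 8.16, 10.6 and 8.55 degrees of freedom, in that order. Time pairs the arrays, as the labels give it. Deviations from the arm means correlated between the arms at 0.375, 0.292, 0.212 and 0.0724 for 48, 96, 168 and 240 h. Between arrays of the arms at different times they correlated at -0.320 to 0.198, a range that holds the 240 h value. The fits were tested on simulated data. Alternatives changed the block, filter, floor, normalization, prior, weights and pairs, and for the slopes put the number of electroporations in place of day. The genes and lists were chosen with earlier results of these data known. Named are all probes of the G1 regulators. From each related list up to 4 genes that passed are named, or where fewer than 2 passed those of smallest p up to 2. The 5 genes most like CCND2 are named too; MYC was named after its values were seen. The number of arrays limits the precision.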

Additional observations from a re-analysis of the deposited data

Results flagged for a closer look

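The difference between siRE and siMM at the brighter CCNE1 probe changed with time: it moved by -0.19 per day in the test of the siRNA by day interaction (limma adjusted p = 0.0471), with 0.01, -0.60, -1.12 and -1.56 at 48, 96, 168 and 240 h. The siRE values of the brighter probe lay below the background cut-off at 168 and 240 h. The dimmer CCNE1 probe, next to background, had 0.01 per day (limma adjusted p = 0.931). In none of the 20 sets of 4 arrays (10 probes in each arm) did a single array stand apart by Dixon's gap criterion at the 95% level, which chance alone would pass about 1 time in 20. The 4 arrays of a set are 4 times and not replicates, so this check cannot tell an outlying array from a change with time.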

How the results depend on the processing

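Over 11 alternative runs, all 109 estimates of the 10 probes kept the direction of the comparison over the 4 times. Only the 6 probes called lower as reported could lose a call, and 23 of their estimates did. Of the 11 runs, the call held in 11 for CCND1 and in 7 and 9 for the brighter and dimmer CCND2 probe. It held in 5 for the brighter CCNE1 probe, 5 for CDK4 and 6 for CDK6. The number of the 10 probes called lower, 6 in the comparison as reported, was 4 to 6 over the runs that kept all pairs of arrays. It was 1 to 4 when 1 pair was left out: 1 with 96 h removed, 1 with 168 h removed, 2 with 240 h removed and 4 with 48 h removed. Such runs have fewer arrays and residual degrees of freedom. Over all tested probes, 410 were lower and 479 higher as reported, 83 to 599 and 153 to 588 with a pair left out, 186 and 278 with dim values floored at the cut-off, and 656 lower with a robust, intensity-trended prior. Without the replicate block of time, 215 were lower and 315 higher, the count of the 10 probes called lower was 4, and the calls of CCNE1 and CDK4 ended; the cause of the other changes was not tested. The interaction count of 1 probe became 0 with no filter, with dim values floored at the cut-off and with cyclic loess, and 0 to 2 with a pair left out. The count of probes falling within siRE, 0 as reported, was 1 with no filter, 1 with a robust, intensity-trended prior, and 0 to 1 with a pair left out, runs that were added after the data were seen. Over all tested probes the interaction called 61 as more negative and 78 as more positive, with 1 to 286 and 9 to 183 over the alternatives, and slopes in siRE called 147 as falling and 148 as rising, with 14 to 185 and 64 to 187. Values near background limit CCND1 and CCNE1 in siRE, and CCNE2 and CDKN1A in both arms.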
